A study of Mus musculus with 6 samples.

Results

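Toll-like receptors are the proteins by which macrophages and other immune cells recognise molecules of microbes and of damaged cells. The genes described here are 9 receptor genes of the family, Tlr1, Tlr2, Tlr3, Tlr4, Tlr6, Tlr7, Tlr8, Tlr9 and Tlr13, and Myd88, the gene of the adaptor that most of them use. They were chosen by name, with earlier results of these data known, and are 10 of the 54532 genes listed in each library. All 10 were found by their Ensembl identifiers.

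RNA of sorted mouse cells was sequenced in 6 libraries, 1 per condition, to ask how iron overload and leukemia change macrophages. All mice were C57BL/6, given by the paper as 6 to 8 weeks old. WT mice carried no leukemia. MA9 mice had been transplanted with GFP+ acute myeloid leukemia (AML) cells, which came from c-kit+ bone marrow (BM) cells infected with a retrovirus carrying the MLL-AF9 fusion gene and GFP. WT/FE and MA9/FE mice received 0.2 mL of iron dextran at 25 mg/mL into the peritoneum every other day, 6 times, and WT and MA9 mice received PBS in its place. The MA9/FE mice, and their PBS controls, were injected from a week after transplantation. Macrophages of all 4 kinds of mice (4 libraries) and leukemia cells of both kinds of leukemic mice (2 libraries) were sequenced. Values of the 4 macrophage libraries are given in the order WT, then WT/FE, then MA9, then MA9/FE throughout, and those of the leukemia cells with MA9 before MA9/FE. The fusion gene is driven by a retroviral vector and the leukemia is made of transplanted cells, whereas the macrophages were sorted as GFP- cells. Whether a library holds cells of 1 mouse or of several was not given in the sources used here.

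According to the labels the macrophages were taken from the spleen and the leukemia cells from the BM, but the paper describes BM macrophages. This conflict was not settled, so cell type and tissue cannot be told apart where leukemia cells are compared with macrophages. With 1 library per condition there is no replicate of any of them. Every interval given below is an exact 95% interval for the counting of reads, and does not include differences between mice.

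The libraries held 16085346 to 19518359 reads, and each was checked against marker genes of the cell types it could contain. All 17 macrophage markers were detected in all 6 libraries. They took 0.165%, 0.303%, 0.162% and 0.341% of the reads of the 4 macrophage libraries, against 0.0826% and 0.0839% in leukemia cells. C1qa, a complement gene of tissue macrophages, was at 67.7, 137, 62.8 and 223 FPKM in the 4 macrophage libraries, and at 4.50 and 3.61 FPKM in leukemia cells. Not every marker was lower in leukemia cells. Cd68 was at 80.8, 84.1, 71.9 and 91.6 FPKM in the 4 macrophage libraries and at 100 and 107 FPKM in leukemia cells. Csf1r was at 56.6, 111, 63.9 and 98.1 FPKM, and at 66.6 and 70.7 FPKM. Of the 17 markers, 14 were lower and 3 higher in MA9 leukemia cells than in MA9 macrophages. In MA9/FE mice 16 were lower and 1 higher. FPKM are fragments per kilobase of exon, scaled to the library's total, so levels of different genes can be compared.

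The macrophage libraries also held much RNA of B cell genes. The 14 B cell markers took 0.780%, 0.764%, 0.466% and 0.716% of the reads of the 4 macrophage libraries, more than the macrophage markers did in the same libraries. In leukemia cells they took 0.0360% and 0.0338%. Cd79a, a part of the B cell receptor, was at 745 FPKM in WT macrophages and at 0.832 FPKM in MA9 leukemia cells. The 12 neutrophil markers took 0.00253% and 0.00216% of the reads of WT and WT/FE macrophages but 0.169% and 0.0839% of MA9 and MA9/FE macrophages, and 0.233% and 0.178% of MA9 and MA9/FE leukemia cells. The 8 conventional dendritic cell markers took 0.0697%, 0.0671%, 0.0533% and 0.0512% of the reads of the 4 macrophage libraries. Their share in leukemia cells was 0.0101% and 0.0165%. Several Toll-like receptors are expressed by B cells and neutrophils as well as by macrophages. In these bulk libraries a change in the number of cells of a type and a change in the RNA per cell cannot be told apart.

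**Figure D1:**
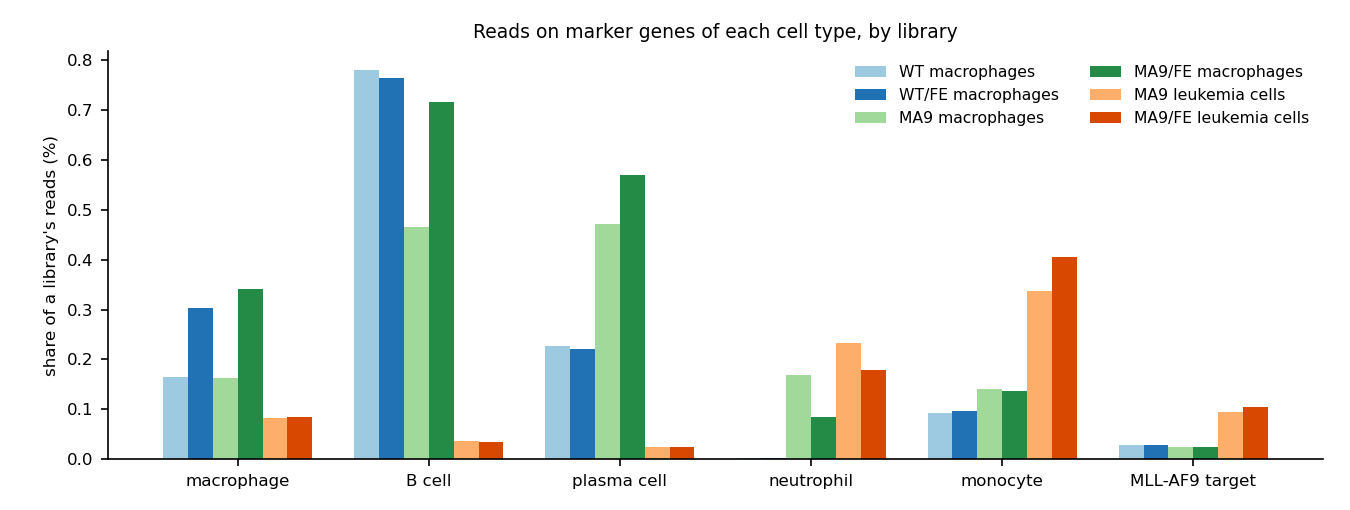
Share of each library's reads, in percent, on marker genes of 6 cell types (bars: the 4 macrophage and 2 leukemia cell libraries, with 1 bar per library). B cell markers take 0.466% to 0.780% of the reads of the 4 macrophage libraries and 0.0338% to 0.0360% of the 2 leukemia cell libraries.

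The receptors of this family are transmembrane proteins with a ligand-binding ectodomain of leucine-rich repeats and a cytoplasmic TIR domain. TLR1, TLR2, TLR4 and TLR6 act mainly at the cell surface. TLR2 pairs with TLR1 or TLR6 to bind bacterial lipopeptides, and TLR4, with its partner MD-2, binds lipopolysaccharide. TLR3, TLR7, TLR8, TLR9 and TLR13 act in endosomes on nucleic acids, and need the chaperone UNC93B1 to reach them. All of these except TLR3, which uses the adaptor TRIF, signal through MyD88 to NF-kB and to interferon regulatory factors.

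The genes lie on 6 chromosomes of the mouse genome (GRCm38, GENCODE M21 annotation). Tlr1 (chr5:64924679-64933563) and Tlr6 (chr5:64952031-64960097) are neighbours on the minus strand of chromosome 5. Tlr8 (chrX:167242696-167264329) and Tlr7 (chrX:167304929-167330558) are neighbours on the minus strand of chromosome X, which also carries Tlr13 (chrX:106143204-106160493) on the plus strand. The others are Tlr2 (chr3:83836272-83841767), Tlr3 (chr8:45395665-45411080) and Myd88 (chr9:119335934-119341411) on the minus strand, and Tlr4 (chr4:66827584-66930284) and Tlr9 (chr9:106222598-106226883) on the plus strand.

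Tlr1 and Tlr6 are near-identical over a part of their coding sequence, and reads from that part could have been assigned to either. Of all stretches of 100 bases in the longest Tlr1 transcript, 8.85% occur also in the longest Tlr6 transcript, and of those in Tlr6 7.24% occur in Tlr1. Between Tlr7 and Tlr8 no stretch of 100 bases is shared. The longest shared stretch of Tlr1 and Tlr6 is 229 bases of coding sequence, at chr5:64925537-64925765 in exon 4 of 4 of Tlr1 and at chr5:64953828-64954056 in exon 2 of 2 of Tlr6, both on the minus strand (GENCODE M21). It is printed because values of the pair carry this uncertainty.
Tlr1 and Tlr6, shared: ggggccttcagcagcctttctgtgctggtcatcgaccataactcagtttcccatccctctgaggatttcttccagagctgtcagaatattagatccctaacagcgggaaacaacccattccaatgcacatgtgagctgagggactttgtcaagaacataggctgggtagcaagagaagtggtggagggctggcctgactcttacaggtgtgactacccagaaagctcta

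Windows of 250 bases before the start site were available from RefSeq (GRCm38.p6) for 8 of the 10 genes, with no entry matched for Tlr4 and Tlr7. They are printed for Tlr1, Tlr3 and Tlr9, the matched genes with the widest fall in leukemia cells, and for Tlr2 and Myd88, which were not called there. The windows are chr5:64933559-64933808 (Tlr1, 1 of its 2 windows), chr8:45410381-45410630 (Tlr3), chr3:83841609-83841858 (Tlr2) and chr9:119340019-119340268 (Myd88), all minus strand, and chr9:106222348-106222597 (Tlr9, plus strand). Capitals mark matches on either strand to 6 short motifs, with overlapping matches merged.
Tlr1: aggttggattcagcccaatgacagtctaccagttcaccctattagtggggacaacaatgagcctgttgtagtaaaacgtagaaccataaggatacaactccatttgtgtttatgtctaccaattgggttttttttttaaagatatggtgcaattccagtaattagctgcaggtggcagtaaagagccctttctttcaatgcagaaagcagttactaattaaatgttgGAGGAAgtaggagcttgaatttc
Tlr3: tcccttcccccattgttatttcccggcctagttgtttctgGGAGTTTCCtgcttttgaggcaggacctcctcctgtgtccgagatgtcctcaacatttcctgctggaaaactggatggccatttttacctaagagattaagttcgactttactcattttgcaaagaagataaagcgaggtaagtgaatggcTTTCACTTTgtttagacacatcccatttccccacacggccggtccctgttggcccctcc
Tlr9: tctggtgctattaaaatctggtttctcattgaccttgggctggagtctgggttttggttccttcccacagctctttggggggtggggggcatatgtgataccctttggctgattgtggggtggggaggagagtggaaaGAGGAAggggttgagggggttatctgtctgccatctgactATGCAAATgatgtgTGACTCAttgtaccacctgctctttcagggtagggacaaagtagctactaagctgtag
Tlr2: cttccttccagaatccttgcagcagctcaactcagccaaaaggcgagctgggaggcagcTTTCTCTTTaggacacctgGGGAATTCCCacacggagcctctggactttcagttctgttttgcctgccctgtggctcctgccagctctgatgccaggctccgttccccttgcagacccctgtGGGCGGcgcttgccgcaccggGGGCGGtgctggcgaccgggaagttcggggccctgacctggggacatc
Myd88: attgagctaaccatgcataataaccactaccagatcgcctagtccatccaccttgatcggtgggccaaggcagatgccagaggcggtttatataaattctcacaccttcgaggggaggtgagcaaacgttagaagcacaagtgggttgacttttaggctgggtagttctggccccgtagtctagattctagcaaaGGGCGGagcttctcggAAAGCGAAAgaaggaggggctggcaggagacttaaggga

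Over the 10 windows of these 8 genes, GAGGAA, a core of sites of the myeloid and B cell factor PU.1, occurred in 4 (Tlr1, Tlr8, Tlr9 and Tlr13), and it occurred in 23.3% of all 32851 windows of that length. The octamer ATGCAAAT, bound by the octamer factors OCT1 and OCT2, occurred in 1, that of Tlr9, and in 1.60% of all windows. AAANNGAAA, a part of the interferon response element, occurred in 4 (Tlr2, Tlr3, Tlr6 and Myd88) and in 9.37% of all. GGNNNTTCC, a part of the NF-kB site, occurred in 3 (Tlr2, Tlr3 and Tlr6) and in 15.7% of all. The AP-1 motif TGANTCA occurred in 1 (Tlr9) and in 6.75% of all, and the GC box GGGCGG in 2 (Tlr2 and Myd88) and in 32.7% of all. A match describes the letters of the window and not a bound site.

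In macrophages, Tlr1 and Tlr9 were the highest receptor genes and Tlr8 the lowest, though in MA9 macrophages its counting interval overlapped that of Tlr6. In leukemia cells Tlr2 was the highest and Tlr3 was almost absent. Summed over the 9 receptors, the level was 172, 187, 129 and 132 FPKM in the 4 macrophage libraries, and 43.5 and 50.9 FPKM in leukemia cells. The 4 surface receptors gave 40.5% to 48.2% of that sum in the 4 macrophage libraries and 57.2% and 55.1% in leukemia cells.

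Among the surface receptors, Tlr1 was at 63.3, 66.0, 36.0 and 42.6 FPKM in the 4 macrophage libraries (WT first, then WT/FE, then MA9, then MA9/FE) and at 8.02 and 9.36 FPKM in leukemia cells (MA9, then MA9/FE). It was highest in macrophages of mice without leukemia and lowest in leukemia cells, with no overlap between these. Its partner Tlr2 was at 10.1, 11.3, 9.07 and 12.1 FPKM in the 4 macrophage libraries and at 12.6 and 14.6 FPKM in leukemia cells. Thus Tlr1 was 6.27 times Tlr2 in WT macrophages and 0.637 times Tlr2 in MA9 leukemia cells. Tlr6, the other partner of Tlr2, was at 6.05, 6.10, 3.30 and 4.60 FPKM in the 4 macrophage libraries and at 2.59 and 2.77 FPKM in leukemia cells. Tlr1 exceeded Tlr6 in all 6 libraries, by 9.25 to 10.9 times in macrophages and by 3.10 and 3.38 times in leukemia cells. Tlr4, the lipopolysaccharide receptor, was low in all libraries, at 3.15, 4.89, 3.82 and 4.34 FPKM in the 4 macrophage libraries and 1.69 and 1.30 FPKM in leukemia cells.

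Among the endosomal receptors, Tlr9, which binds CpG DNA, was at 43.5, 48.3, 36.0 and 27.1 FPKM in the 4 macrophage libraries and at 9.82 and 10.6 FPKM in leukemia cells. Tlr7, a receptor of single-stranded RNA, was at 23.1, 23.3, 18.6 and 20.4 FPKM in the 4 macrophage libraries and at 1.34 and 1.61 FPKM in leukemia cells. Both were higher in each macrophage library than in either leukemia cell library. Tlr13, which binds bacterial ribosomal RNA in mice, was at 14.3, 16.3, 12.6 and 11.8 FPKM in the 4 macrophage libraries and at 5.94 and 8.33 FPKM in leukemia cells. Tlr3, the receptor of double-stranded RNA, was at 6.75, 7.74, 6.83 and 6.94 FPKM in the 4 macrophage libraries, 5 reads (0.053 FPKM) in MA9 leukemia cells and 0 reads in MA9/FE leukemia cells, where 3 reads would be 0.032 FPKM. The gene was steady over the 4 macrophage libraries and at the limit of detection in leukemia cells. Tlr8, whose mouse protein differs from the human receptor in its ligands, was at 1.30 FPKM in WT macrophages (91 reads), 3.60 in WT/FE (217 reads), 2.62 in MA9 (160 reads) and 2.25 in MA9/FE macrophages (130 reads), and at 1.44 (94 reads) and 2.25 FPKM (144 reads) in leukemia cells. It was the only one of the 10 genes whose levels in leukemia cells lay within the range of the macrophages.

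Myd88 varied least over the macrophages, at 27.1, 24.6, 25.1 and 27.5 FPKM in the 4 macrophage libraries and at 21.9 and 18.2 FPKM in leukemia cells. In leukemia cells it was the highest of the 10 genes. Its level was 0.131 to 0.208 times the sum of the 9 receptors in macrophages, 0.505 times in MA9 leukemia cells and 0.359 times in MA9/FE leukemia cells. In the order of levels, Tlr1 and Tlr9 could not be told apart in MA9 macrophages, nor Myd88 and Tlr9 in MA9/FE macrophages, because their counting intervals overlapped. The same held for Tlr3 and Tlr6 in WT macrophages, for Myd88 and Tlr7 in WT/FE macrophages, and for Tlr4, Tlr8 and Tlr7 in MA9 leukemia cells. Other neighbours in the order that overlapped were Tlr4 with Tlr6 and Tlr6 with Tlr8 in MA9 macrophages. In MA9/FE macrophages they were Tlr2 with Tlr13 and Tlr6 with Tlr4. In MA9/FE leukemia cells, neighbours overlapped along Tlr9, Tlr1 and Tlr13, and along Tlr6, Tlr8, Tlr7 and Tlr4.

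**Figure D2:**
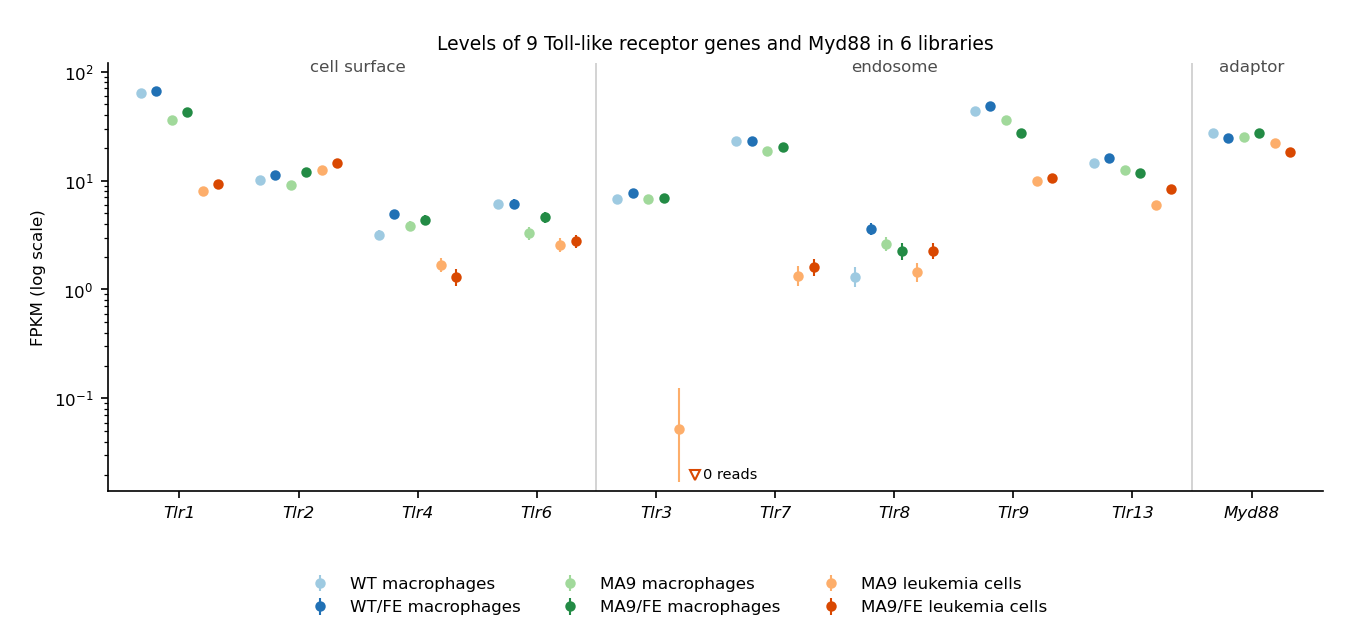
FPKM on a log scale of the 9 receptor genes and Myd88 in each of the 6 libraries. Points are single libraries and bars are 95% counting intervals; the open triangle marks 0 reads of Tlr3 in MA9/FE leukemia cells. Tlr1, Tlr3, Tlr7 and Tlr9 sit well below the macrophages in both leukemia cell libraries, whereas Tlr2 sits at or above them.

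Leukemia cells were first set against macrophages of the same kind of mouse, to ask which of these genes separate the 2 kinds of cell. Fold changes were taken on log2(FPKM + 1) after scaling, with at least 10 reads in 1 of the pair, and a fold of at least 2 was called; the ratios given with or without intervals are of scaled FPKM, with nothing added. In MA9 mice 5 of the 10 genes were called, all lower in leukemia cells: Tlr1, Tlr3, Tlr7, Tlr9 and Tlr13. Of all 17044 genes compared, 20.0% were called, and 12.6% were called lower. In MA9/FE mice 5 genes were called, also all lower: Tlr1, Tlr3, Tlr4, Tlr7 and Tlr9. There 22.8% of 16842 genes were called and 13.2% were called lower. The median log2 change of the 10 genes was -0.93 in MA9 and -0.92 in MA9/FE mice, against -0.01 and -0.03 over all genes compared.

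Tlr3 fell furthest in proportion. Its level in MA9 leukemia cells was 0.00757 times that of MA9 macrophages (interval 0.00245 to 0.0178), and in MA9/FE mice, with 0 reads in leukemia cells, the interval of the ratio reached up to 0.00563. Tlr7 was at 0.0701 times (0.0565 to 0.0860) and 0.0771 times (0.0632 to 0.0932) the macrophage level in MA9 and MA9/FE mice. Tlr7 was still detected in leukemia cells, by 99 and 117 reads. Tlr1 was at 0.218 times (0.197 to 0.241) in MA9 and 0.216 times (0.196 to 0.237) in MA9/FE mice, nearly the same share in both. Tlr9 was at 0.267 times (0.244 to 0.292) in MA9 and at 0.385 times (0.351 to 0.422) in MA9/FE mice, and these intervals did not overlap. Tlr13 was just inside the limit in MA9 mice, with -1.0001 on the log2(FPKM + 1) scale and a ratio of 0.461. It was outside the limit there without the further scaling or with the median of ratios. In MA9/FE mice Tlr13 was outside the limit, with -0.48 on the same scale. Tlr4 was outside it in MA9 mice, with -0.87 (inside it, with -1.17, at a pseudocount of 0.1), and inside it in MA9/FE mice, with -1.23.

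The 4 other genes were called in neither kind of mouse. Tlr2 was higher in leukemia cells in both kinds of mice, by 1.36 times (1.20 to 1.53) and 1.19 times (1.07 to 1.32). Tlr6 was at 0.767 and 0.589 times, and Myd88 at 0.855 and 0.651 times, the macrophage level in MA9 and MA9/FE mice. Tlr8 was at 0.538 times (0.412 to 0.698) in MA9 mice and at 0.978 times (0.767 to 1.25) in MA9/FE mice. Markers of B cells, neutrophils, macrophages and conventional dendritic cells all differed between these libraries, as given above, and their part in these differences was not tested.

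**Figure D3:**
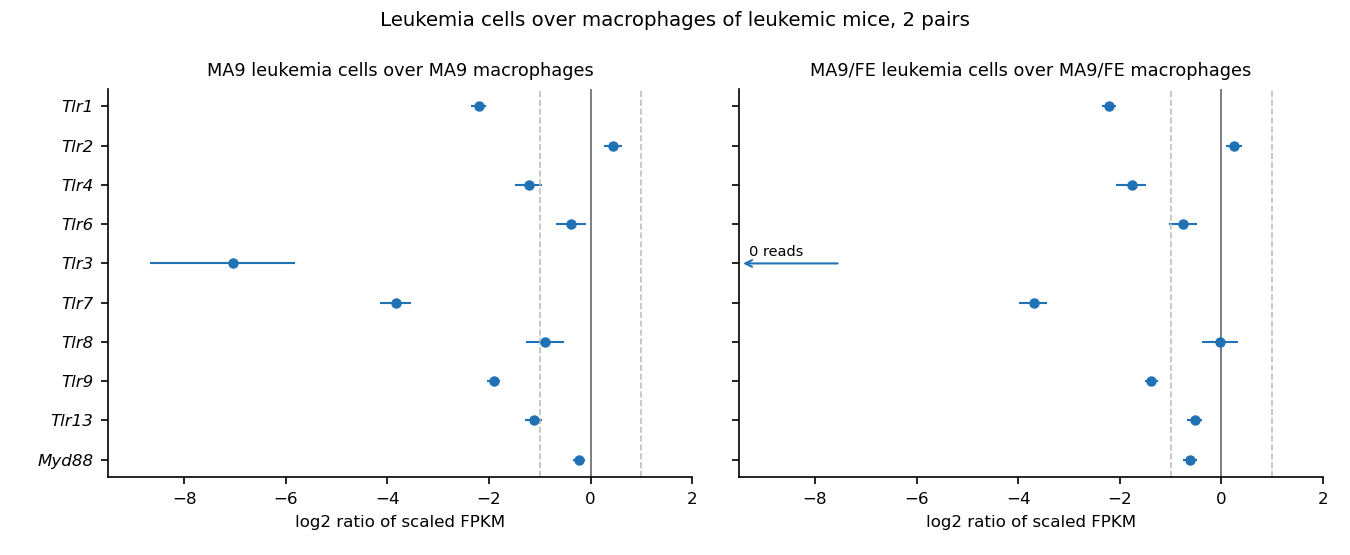
Log2 ratio of scaled FPKM, leukemia cells over macrophages, in MA9 mice (left) and MA9/FE mice (right). Points are ratios of 1 library to 1 library, bars are 95% counting intervals, the arrow is an upper limit where the leukemia cells had 0 reads, and dashed lines mark a fold of 2 on this scale. In each panel 9 of the 10 genes lie below 0 and Tlr2 lies above it.

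A limma fit over the 4 libraries of leukemic mice, with the iron treatment as a second term, treated the part of the values that the terms do not explain as noise, with 1 residual degree of freedom. It called 6 of the 10 genes lower in leukemia cells at an adjusted p at or under 0.05 over all genes (Benjamini-Hochberg), and none higher. Across all 16291 genes it called 43.0%, and 23.0% were called lower, so calls were frequent in this comparison. The log2 changes were -3.07 ± 0.18 (SE) for Tlr7, with a limma adjusted p of 1.92e-05, -2.95 ± 0.18 for Tlr3 (2.54e-05) and -2.07 ± 0.15 for Tlr1 (4.79e-05). They were -1.54 ± 0.17 for Tlr9 (limma adjusted p = 0.000413), -1.04 ± 0.21 for Tlr4 (0.00578) and -0.73 ± 0.19 for Tlr13 (0.0183), and the last 2 did not pass without the minimum of reads. Tlr2 (0.33 ± 0.16), Tlr6 (-0.43 ± 0.20), Tlr8 (-0.30 ± 0.21) and Myd88 (-0.39 ± 0.16) did not pass, with limma adjusted p from 0.0973 to 0.306.

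Macrophages of leukemic mice were then compared with those of WT mice. None of the 10 genes passed a fold of 2, with or without iron, whereas 4.70% of 16926 genes did so in MA9 against WT macrophages and 4.57% of 16571 in MA9/FE against WT/FE macrophages. Tlr1 was lower in macrophages of leukemic mice in both comparisons, at 0.573 times (0.543 to 0.605) in MA9 against WT and at 0.655 times (0.621 to 0.690) in MA9/FE against WT/FE macrophages. Tlr6, its neighbour, was at 0.550 times (0.465 to 0.650) and 0.766 times (0.654 to 0.896). Both genes were therefore lower than in WT mice by more than the counting of reads allows. Beside this, B cell markers were at 0.466% of reads in MA9 against 0.780% in WT macrophages, and at 0.716% in MA9/FE against 0.764% in WT/FE macrophages. Their part in the lower Tlr1 and Tlr6 levels was not tested.

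Among the endosomal receptors, Tlr9 was at 0.835 times (0.789 to 0.883) in MA9 against WT and at 0.571 times (0.536 to 0.608) in MA9/FE against WT/FE macrophages. Tlr13 was at 0.887 and 0.735 times, and Tlr7 at 0.814 and 0.891 times, in the same 2 comparisons. All 3 were lower in the macrophages of leukemic mice each time. Tlr3 was at 1.02 and 0.910 times, with intervals that both held 1. Tlr8 went in opposite directions, at 2.04 times (1.57 to 2.67) in MA9 against WT, where its log2 change on log2(FPKM + 1) was 0.66 and it passed a fold of 2 only with no pseudocount, and at 0.635 times (0.507 to 0.793) in MA9/FE against WT/FE macrophages. Tlr4 was at 1.22 times (1.05 to 1.42) and 0.902 times (0.786 to 1.03), Tlr2 at 0.907 and 1.08 times, and Myd88 at 0.934 and 1.13 times. These 2 comparisons share no library with each other, but share their libraries with the comparisons of iron and of the kinds of cell.

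A limma fit over the 4 macrophage libraries, with leukemia and iron as terms and 1 residual degree of freedom, called none of the 10 genes for leukemia, while it called 4.94% of 16268 genes. At an unadjusted p under 0.05 in limma, 2818 of the 16268 genes passed in either direction. Of the 10 genes 3 passed, all lower: Tlr1 (log2 change -0.69 ± 0.21 (SE), adjusted p = 0.0853), Tlr9 (-0.51 ± 0.21, 0.215) and Tlr6 (-0.51 ± 0.22, 0.263).

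**Figure D4:**
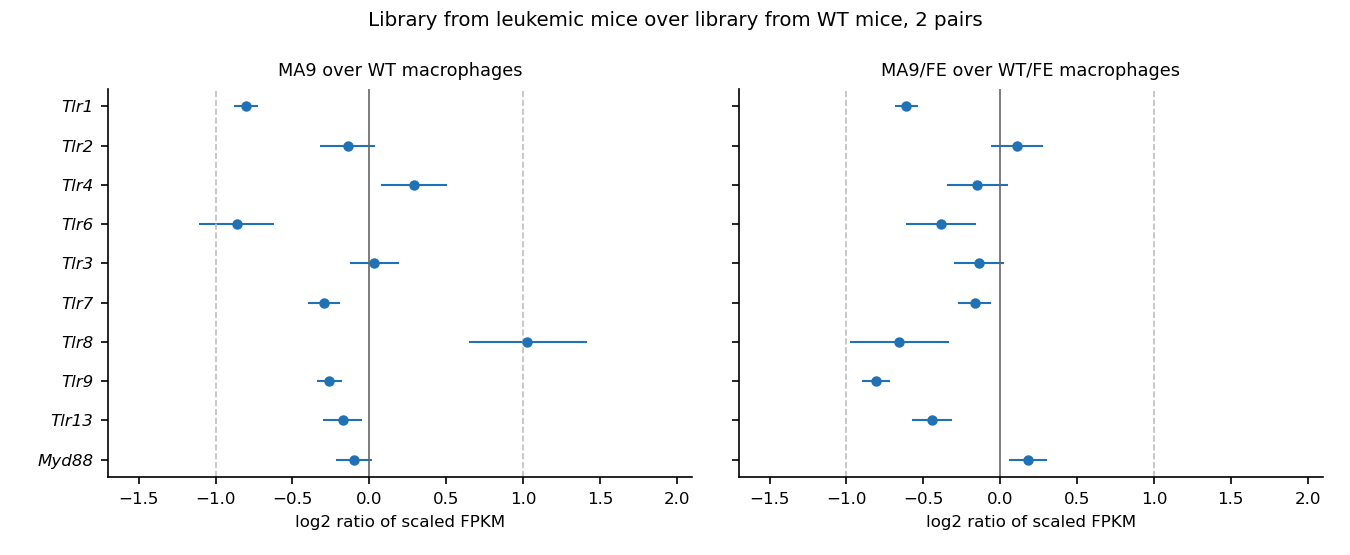
Log2 ratio of scaled FPKM, macrophages of leukemic mice over macrophages of WT mice, without iron (left) and with iron (right). Points are ratios of 1 library to 1 library, bars are 95% counting intervals and dashed lines mark a fold of 2 on this scale. Tlr1 and Tlr6 lie below 0 in both panels, and Tlr8 lies just past a fold of 2 on the left and below 0 on the right.

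Iron-treated mice were compared with PBS-treated mice in 3 pairs of libraries. None of the 10 genes passed a fold of 2 in any pair, against 1.27% of 16754 genes in WT/FE against WT macrophages, 2.46% of 16512 in MA9/FE against MA9 macrophages and 0.863% of 15415 in MA9/FE against MA9 leukemia cells, where Tlr3 had too few reads and 9 genes were compared. Tlr8 in WT/FE against WT macrophages was just outside the limit, with a log2 change of 0.996 on the log2(FPKM + 1) scale. The ratio of its scaled FPKM was 2.76 (2.15 to 3.56), larger than on that scale because its level is low, and the gene passed the limit under 5 of the 8 alternative settings tried. In MA9/FE against MA9 macrophages Tlr8 was at 0.880 times (0.693 to 1.12), and in MA9/FE against MA9 leukemia cells at 1.56 times (1.19 to 2.04). Tlr8 was thus higher after iron in 2 of the 3 pairs by more than the counting error. Macrophage markers were at 0.303% against 0.165% of reads in WT/FE and WT macrophages, and at 0.341% against 0.162% in MA9/FE and MA9 macrophages. Their part in the Tlr8 values was not tested.

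None of the surface receptors was called for iron, and their ratios are given in the order of the 3 pairs. Tlr2 was at 1.12 times (0.995 to 1.26) in WT macrophages, 1.36 times (1.20 to 1.54) in MA9 macrophages and 1.16 times (1.05 to 1.29) in leukemia cells. Tlr1 was at 1.04 times (0.992 to 1.08), 1.21 times (1.14 to 1.29) and 1.17 times (1.03 to 1.32), and Tlr6 at 1.004, 1.43 and 1.07 times in the same order of pairs. Tlr1 and Tlr2 were above 1 in all 3 pairs, and their intervals excluded 1 in the 2 pairs of leukemic mice. Tlr4 was at 1.54 times (1.34 to 1.78) in WT and 1.16 times (1.01 to 1.35) in MA9 macrophages, and at 0.771 times (0.609 to 0.976) in leukemia cells.

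Among the endosomal receptors, Tlr9 was at 1.11 times (1.05 to 1.16) in WT macrophages, 0.774 times (0.724 to 0.827) in MA9 macrophages and 1.08 times (0.970 to 1.21) in leukemia cells. Tlr13 was at 1.13, 0.958 and 1.40 times, and Tlr7 at 1.003, 1.12 and 1.20 times, in the same order. Tlr3 was at 1.14 and 1.04 times in WT and MA9 macrophages. Myd88 was at 0.904 times (0.833 to 0.980) in WT macrophages, 1.12 times (1.03 to 1.22) in MA9 macrophages and 0.831 times (0.758 to 0.912) in leukemia cells. No one of the 10 genes was lower after iron in every pair.

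A limma fit of iron over the 4 macrophage libraries called none of the 10 genes and 0.209% of 16268 genes. An unadjusted p under 0.05 was reached by 800 of the 16268 genes and by none of the 10. A limma fit over the 3 pairs, with the pair as a term and 2 residual degrees of freedom, called 0 of 17152 genes (0%), of which 611 had an unadjusted p under 0.05, none of them among the 10. An effect of the sizes above cannot be told from differences between mice.

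**Figure D5:**
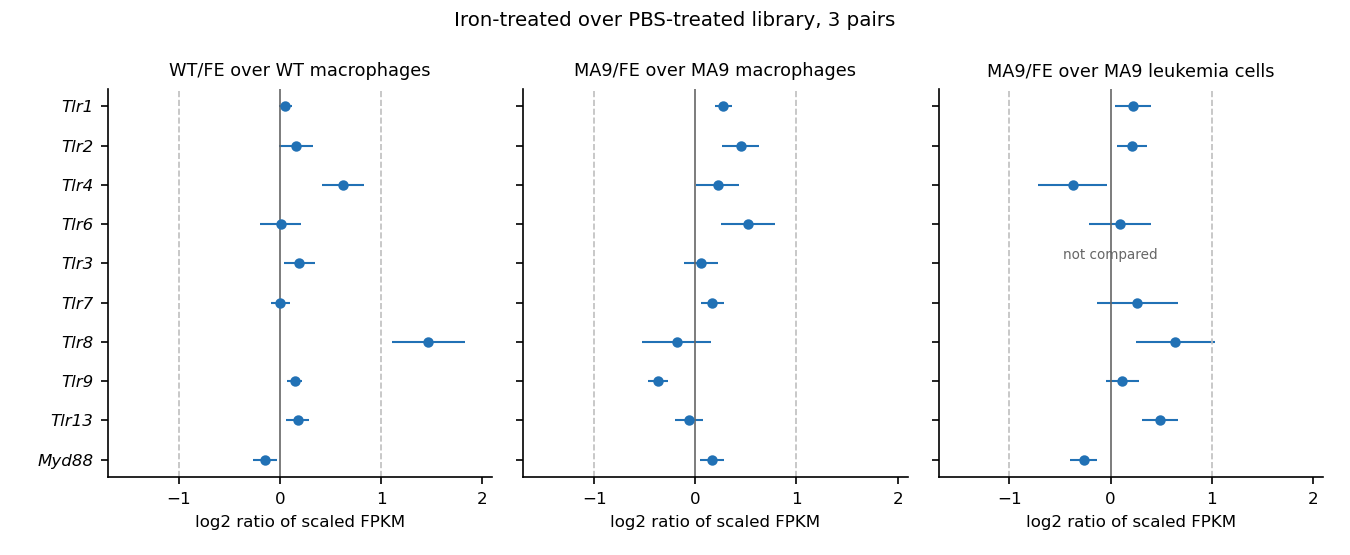
Log2 ratio of scaled FPKM, iron-treated over PBS-treated library, in 3 pairs (WT macrophages, MA9 macrophages, leukemia cells). Points are ratios of 1 library to 1 library, bars are 95% counting intervals and dashed lines mark a fold of 2 on this scale. Tlr8 in WT macrophages is the only point beyond a dashed line, and Tlr3 was not compared in leukemia cells.

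The receptors Tlr5, Tlr11 and Tlr12, which complete the family in the mouse, were also low in leukemia cells. Tlr11, a receptor of protozoan profilin, was at 17.0, 19.1, 14.2 and 12.2 FPKM in the 4 macrophage libraries, and at 11 and 3 reads (0.185 and 0.051 FPKM) in leukemia cells. Tlr12, which acts with TLR11, was at 6.39, 6.82, 5.70 and 6.57 FPKM in the 4 macrophage libraries and at 0.693 and 0.264 FPKM in leukemia cells. Tlr5, the flagellin receptor, was at 3.13, 3.79, 2.21 and 1.21 FPKM in the 4 macrophage libraries and at 0.391 and 0.444 FPKM in leukemia cells. All 3 were called lower in leukemia cells by limma, with log2 changes of -3.68 ± 0.19, -2.30 ± 0.22 and -0.92 ± 0.18 (SE). That fit called 43.0% of all 16291 genes, and 23.0% lower. In MA9/FE against WT/FE macrophages Tlr5 was the only one of the 3 past a fold of 2, with a log2 change of -1.10. Of all 16571 genes compared there, 4.57% passed it.

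Genes that carry, load or cleave the receptors were followed as a list of 15. In leukemia cells against macrophages limma called 2 of them higher and 8 lower, with a median log2 change of -0.78. Of all genes, the same fit called 43.0% in either direction and 23.0% lower. The 2 higher were Cd14 (1.30 ± 0.28 (SE)), which passes lipopolysaccharide to TLR4, and Lbp (3.89 ± 0.18), which binds lipopolysaccharide. Cd36 (-4.73 ± 0.19), a co-receptor of TLR2, and Lgmn (-2.86 ± 0.18), a protease that processes endosomal receptors, had the largest falls. Unc93b1, the chaperone of the endosomal receptors, lay between 227 and 318 FPKM in the 4 macrophage libraries and was at 170 and 177 FPKM in leukemia cells, and did not pass (limma adjusted p = 0.0965). Cd14 was the only gene of the list called by limma for iron in macrophages (1.31 ± 0.22, adjusted p = 0.0407), at 5.67 and 12.2 FPKM in WT and WT/FE and 4.004 and 14.4 FPKM in MA9 and MA9/FE macrophages. Without the minimum of reads limma called no gene for iron in macrophages, and over the 3 pairs Cd14 did not pass (1.01 ± 0.24, limma adjusted p = 0.992). Macrophage markers were higher in the same iron-treated libraries, as given above, and their part in the Cd14 values was not tested.

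Downstream of the receptors, the 20 adaptors and kinases had a median log2 change of -0.03 between the kinds of cell, with 2 called higher and 5 called lower by limma, against 43.0% of all genes called. Ikbke (1.01 ± 0.19 (SE)) was the higher kinase with the largest change and Pik3ap1 (-1.28 ± 0.16), which couples the receptors to PI3K, the adaptor with the largest fall. Of 9 transcription factors 6 were called lower, against 23.0% of all genes, and none higher, with a median of -0.86. Relb, a subunit of NF-kB, was at 102, 87.0, 77.4 and 66.4 FPKM in the 4 macrophage libraries and at 2.41 and 2.16 FPKM in leukemia cells (-4.48 ± 0.15). Nfkb2 changed by -2.34 ± 0.15 and Rel by -1.75 ± 0.16, whereas Rela (-0.36 ± 0.15) and Nfkb1 (-0.11 ± 0.15) did not pass. Of 12 negative regulators 8 were called lower, against 23.0% of all genes, and 2 higher, with a median of -0.87.

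The 15 tested genes that the receptors induce had a median log2 change of -1.41 in leukemia cells against macrophages, with 11 called lower, against 23.0% of all genes, and 2 higher by limma. The lower ones included the co-stimulatory genes Cd86 (-3.90 ± 0.18 (SE)) and Cd40 (-3.64 ± 0.18) and the cytokine Il1b (-3.82 ± 0.16). The higher ones were the chemokines Ccl3 (1.83 ± 0.23) and Cxcl2 (1.30 ± 0.27). In macrophages of leukemic against WT mice limma called 5 of the 15 higher and none lower, with a median of 0.43, against 4.94% of all genes called in either direction. These 5 were Ccl4 (1.33 ± 0.19, adjusted p = 0.00215), Il12b (1.21 ± 0.25, 0.0152), Il10 (1.17 ± 0.21, 0.00611), Ccl3 (0.94 ± 0.20, 0.0154) and Cxcl2 (0.86 ± 0.15, 0.00654). Cxcl2 and Il10 were low, near the 1 that is added to FPKM. Cxcl2 was at 0.248, 0.0864, 0.995 and 1.20 FPKM in the 4 macrophage libraries, and Il10 at 0.626, 1.14, 2.87 and 3.46 FPKM. None of the 5 passed without the minimum of reads, where limma called 1 gene in all, with limma adjusted p from 0.341 to 0.418. Markers of other cell types were also higher in the same libraries. Neutrophil markers are given above, plasma cell markers took 0.228%, 0.221%, 0.473% and 0.569% of the reads of the 4 macrophage libraries, monocyte markers 0.0915%, 0.0961%, 0.140% and 0.137%, and erythroid markers 0.00489%, 0.00561%, 0.0239% and 0.0161%. Their part in these values was not tested. Of 10 other pattern recognition receptors limma called 4 higher and 5 lower in leukemia cells, against 43.0% of all genes called, with Nod1 (-2.27 ± 0.15) among the lower. Without the minimum of reads limma called 3246 of 27484 genes between the kinds of cell, 1930 of them lower. Fewer members of these lists were called there. They then numbered 1 higher and 5 lower of the co-receptors and chaperones, 1 and 1 of the adaptors and kinases, 0 and 5 of the transcription factors, 0 and 2 of the negative regulators, 1 and 7 of 16 induced genes, and 2 and 2 of the other pattern recognition receptors. Of Tlr5, Tlr11 and Tlr12, 2 were still called lower.

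The 3 genes of the 10 with the widest range over the macrophage libraries, Tlr8, Tlr1 and Tlr9, were matched to the genes with the nearest pattern over the 6 libraries among 13730 genes, by the distance between centred log2(FPKM + 1) profiles. Tlr8 was nearest to Lrp1, a scavenger receptor, at a distance of 0.20, followed by Klra2 (0.31) and Adora2b (0.37). Tlr1 was nearest to Cyp4f16 (0.14), Arhgap27os3 (0.14) and Scn4a (0.18). Tlr9 was nearest to Sh3pxd2a (0.07), Wdfy4 (0.15) and Gpr157 (0.17). Lrp1 was at 8.39, 17.4, 11.4 and 11.6 FPKM in the 4 macrophage libraries, with the highest level after iron in WT mice, as for Tlr8. These distances are over 6 libraries of 1 condition each and describe likeness of pattern.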

How the data were processed

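RNA of sorted macrophages and leukemia cells was sequenced by a service provider (Illumina NovaSeq), which also analysed the reads, according to the paper. The authors deposited FPKM per Ensembl gene for 54532 genes in each of 6 libraries. The submitters' processing notes name Bowtie2 2.2.5, RSEM and mm10, without their roles. The annotation they used was not given in the sources used here, and the files' genes were matched to GENCODE M21 (37 had no exon length there). The authors' FPKM times the exon length gave whole reads within 0.05 for 96.8% to 97.0% of values above 0 and for all 60 values of the 10 genes, which gave the depth of 16085346 to 19518359 reads and exact 95% counting intervals (Poisson for levels, conditional binomial for ratios). Intervals cover counting error only.

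Deposited FPKM were scaled by TMM within each comparison. Ratios are of these scaled FPKM, and levels are FPKM as deposited. Log2 fold changes used log2(FPKM + 1), which understates the change of low genes, over genes with at least 10 reads in 1 of the pair, and a fold of at least 2 was called with no test, since each condition has 1 library. limma 3.58.1 (R 4.3.3, trend, empirical Bayes, Benjamini-Hochberg over all genes) was run on scaled log2(FPKM + 1) as 4 additive fits, which treat all departure from additivity as noise. Calculations used Python 3.11.15, pandas 2.3.3, numpy 2.4.6 and scipy 1.17.1. The fold call and the limma fits were tested on simulated data, and the other calculations were not. Other scalings, pseudocounts, minimum reads, a correction for exon length and leaving out pairs were tried.

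The 10 genes, the gene lists and the marker lists were chosen with earlier results of these data known. Named beside the 10 genes are the 3 remaining receptors, up to 4 genes of a pathway list with the largest changes, or, for marker lists, the highest levels, and the 3 nearest patterns. Unc93b1, Rela, Nfkb1, Nfkb2, Ccl3, Cxcl2 and others named where a count was 5 or fewer were chosen after their values were seen. Sequences are from RefSeq (GRCm38.p6) and GENCODE M21. The motifs were chosen after the values were seen.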

Additional observations from a re-analysis of the deposited data

Results flagged for a closer look

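In 4 genes, a ratio lay above 1 in one comparison and below 1 in another under the same contrast, with both counting intervals excluding 1. None of these differences was tested, since each condition has 1 library. After iron, Tlr9 was higher in WT macrophages and lower in MA9 macrophages, and the log2 change in MA9 was 0.50 below that in WT (difference -0.50). Plasmacytoid dendritic cell markers took 0.0254%, 0.0262%, 0.0286% and 0.0222% of the reads of the 4 macrophage libraries. B cell markers took 0.780%, 0.764%, 0.466% and 0.716%, and so were higher after iron in MA9 macrophages. The part of either in the Tlr9 values was not tested. Myd88 was lower after iron in WT macrophages and higher in MA9 macrophages (difference 0.30), and higher in MA9 macrophages but lower in leukemia cells (difference of leukemia cells from macrophages -0.42). Tlr4 was higher after iron in both pairs of macrophages and lower in leukemia cells, with a difference of -0.72 from WT macrophages and of -0.40 from MA9 macrophages. Tlr8 was higher in MA9 than in WT macrophages and lower in MA9/FE than in WT/FE macrophages (difference -1.15), and its levels rest on 91 to 217 reads in these 4 libraries.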

How the results depend on the processing

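No paired analysis was possible because each condition has 1 library and the labels tie no libraries to the same mouse; the pairs in the iron fit are pairs of conditions. Each fold was recomputed under 7 alternatives and 1 chosen after seeing the data (no pseudocount, with reads at or under 3 set to 3). In WT/FE against WT macrophages the count of the 10 genes past a fold of 2 became 1 (Tlr8) without further scaling, with the median of ratios, with a pseudocount of 0.1, with the trend on exon length removed, and with no pseudocount. In MA9 against WT macrophages it became 1 (Tlr8) with no pseudocount, and it stayed 0 in the 3 other comparisons between mice. In leukemia cells against macrophages it was 4 to 6 in MA9 and 5 in MA9/FE mice, and no called gene changed sign. Genes that limma called among the 10 numbered 6 between the kinds of cell, or 4 without a minimum of reads, and 0 for leukemia and for iron under every alternative, also with each of the 3 pairs left out (0 to 0) or without the pair as a block.

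Counts over all genes moved more. With a pseudocount of 0.1 the genes past a fold of 2 went from 213 to 784 (WT/FE against WT macrophages), 795 to 1980 (MA9 against WT), 758 to 2083 (MA9/FE against WT/FE), 406 to 1499 (MA9/FE against MA9 macrophages), 133 to 631 (leukemia cells after iron), 3407 to 5809 and 3832 to 6498 (leukemia cells against macrophages, MA9 and MA9/FE). With no pseudocount these were 1256, 2574, 2697, 2149, 1054, 6407 and 7029. Without a minimum of reads they were 481 for iron in WT macrophages, 731 for iron in MA9 macrophages and 375 for iron in leukemia cells, and with at least 50 reads 116, 234 and 60. Removing the trend on exon length lowered the share of calls that were higher from 64.1% to 44.9% in MA9/FE against WT/FE macrophages and from 48.8% to 30.0% in MA9/FE against MA9 macrophages. Genes called by limma for leukemia in macrophages went from 804 to 1, and for the kinds of cell from 7001 to 3246, without a minimum of reads. For iron in macrophages they went from 34 to 61 (TMM without hemoglobin and immunoglobulin genes), 68 (pseudocount 0.1) and 0 (no minimum), and for iron over 3 pairs from 0 to 34 without the leukemia cells. The causes were not tested. Depth limits Tlr3 in leukemia cells and Tlr8 in all 6 libraries, which had at most 217 reads.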
